A study of Arabidopsis thaliana with 9 samples.

Results

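Transcript levels of 5 Arabidopsis thaliana loci were followed across 9 seedling RNA sequencing libraries: MRD1 (AT1G53480), its neighbour HEI10 (AT1G53490), the RNI-like protein gene AT3G54160, the pseudogene AT1G31570 and the noncoding RNA gene AT2G07042. They are 5 of the 33602 gene models with counts. They were picked because earlier results of the same libraries had shown them displaced in the libraries labelled RNAi-ASCO and not in those labelled 35S-ASCO, so they were chosen by their counts in the very contrasts described here. Their differences between the groups are therefore given as a description, with no test, and tests were kept to other genes. All 5 passed the filter on low counts, and each of them could do so through the group in which it is high.

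The series concerns ASCO, a long noncoding RNA transcribed from AT1G67105 and studied for its part in splicing. There were 3 groups of 3 libraries from whole seedlings grown in vitro: wild type (WT), plants labelled as a knock-down of AT1G67105 by RNA interference (RNAi-ASCO, called the RNAi-labelled libraries below), and plants labelled as overexpressing AT1G67105, with a promoter trap noted (35S-ASCO, after a strong viral promoter used in plants). WT and 35S-ASCO seedlings are labelled 16 days old. The RNAi-labelled seedlings have a label of 4 days for replicates 1 and 2, and of 16 days for replicate 3, so for the 4-day libraries age and genotype cannot be told apart. The labels do not say how many transgenic lines were used, how many plants were pooled, or whether replicates came from separate cultures, so the spread between libraries may be partly technical.

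The counts of the targeted gene were higher, not lower, in the group labelled as its knock-down. The tables do not separate reads of the plant's own AT1G67105 from reads of a transgene that carries its sequence, so these counts do not show the level of the gene itself. AT1G67105 had 178, 344 and 143 read pairs in WT replicates 1, 2 and 3, and 568, 892 and 1328 in the RNAi-labelled libraries. In 35S-ASCO it had 447029, 130494 and 338680 pairs. In CPM, the pair count relative to the library total after scaling by the trimmed mean of M values (TMM), its mean was 4.22 ± 2.09 in WT, 19.7 in the RNAi-labelled libraries and 3616 in 35S-ASCO (n = 3 each). Libraries held from 27044702 to 126355312 counted pairs, and a floor of 3 pairs corresponded to between 0.0237 and 0.111 CPM, counting error only. Leaf markers (3 genes, summed level 19820 to 23740 CPM) were high in every library. Root markers (3 genes) summed to between 2656 and 3288 CPM, nearly all of it from PYK10 (2633 to 3268 CPM). The other root markers were much lower, CASP1 at 16.1 to 22.5 CPM and TIP2;3 at 2.95 to 8.65 CPM. Floral organ markers (4 genes) summed to between 0.645 and 1.76 CPM, and seed storage markers (3 genes) to at most 0.294 CPM.

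MRD1 takes its name from a lower transcript level in the mto1 mutant, which over-accumulates methionine because its cystathionine gamma-synthase escapes feedback control. HEI10 encodes a RING-domain protein that marks recombination sites on meiotic chromosomes and is required for interference-sensitive crossovers. RNI-like proteins carry leucine-rich repeats, which commonly bind other proteins. Pseudogenes and noncoding RNA genes can be transcribed without giving a protein, and many plant pseudogenes lie in silenced chromatin.

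On the RefSeq assembly TAIR10.1, MRD1 lies on the minus strand at chr1:19963047-19964712 and HEI10 on the plus strand at chr1:19963267-19966952. AT3G54160 lies on the plus strand at chr3:20053020-20055309. AT1G31570 lies on the minus strand at chr1:11302782-11309164, annotated as 1 exon of 6383 bases. AT2G07042 lies on the minus strand at chr2:2919953-2922249, with 3 exons. The lengths of the deposited models equal those of the RefSeq exons for 4 of the 5 members, and for AT3G54160 that of the coding part of its exons (1305 bases).

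MRD1 and HEI10 overlap on opposite strands. Of the 844 bases of the MRD1 model, 683 (80.9%) are also HEI10 exon 1 read from the other strand, and these make up 30.3% of the 2252 bases of the HEI10 model. The other 161 MRD1 bases comprise 108 bases in a HEI10 intron, which form MRD1 exon 1, and 53 bases that precede HEI10. RefSeq also lists a natural antisense RNA, AT1G07887, on the HEI10 strand at chr1:19963067-19964105, sharing 736 bases with the MRD1 model and 839 with the HEI10 model. It has no row in the count tables used here. The libraries were made with a stranded kit, but the sources used here do not state whether counting used the strand, so pairs of MRD1, HEI10 and AT1G07887 in the shared stretch may not be told apart.

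**Figure D1:**
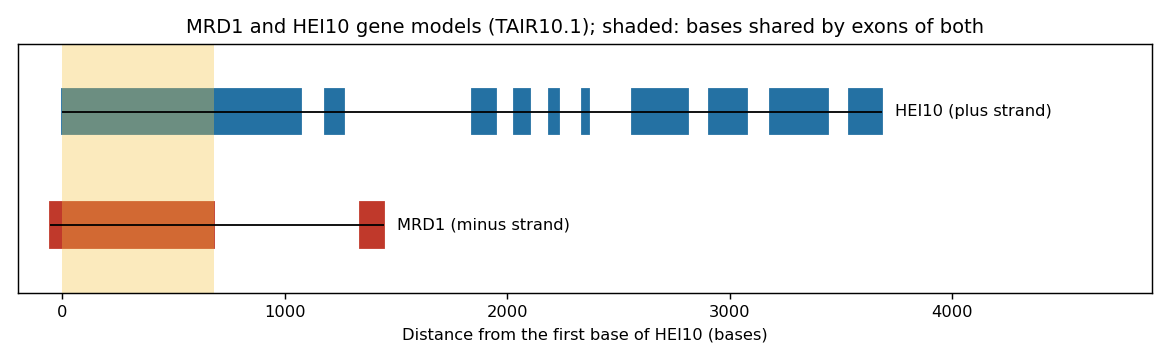
Exons of MRD1 and HEI10 (boxes) joined by introns (lines), plotted by distance in bases from the first base of HEI10. The shaded stretch holds the 683 bases that exons of both genes share on opposite strands, and MRD1 exon 1 (its right-hand box, since the gene runs from right to left) falls between HEI10 exons.

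MRD1 exon 1 is printed because it is the longer of the stretches by which MRD1 can be told from HEI10 exons, and the 250 bases before it because they lie in the same HEI10 intron. The 88 bases between AT3G54150 and AT3G54160 are the whole gap between genes that run away from each other and that differed from each other in their pattern of levels. The 250 bases before AT2G07042 precede the member that was lower in the RNAi-labelled libraries. Each is given 5′ to 3′ on the strand of the member, from RefSeq TAIR10.1, and capitals mark a TATA box (TATAAA), a W-box core (TTGAC) or a G-box (CACGTG) on either strand, none of which overlapped another. MRD1 exon 1, on the minus strand of chr1:19964605-19964712, was not searched.
MRD1 exon 1: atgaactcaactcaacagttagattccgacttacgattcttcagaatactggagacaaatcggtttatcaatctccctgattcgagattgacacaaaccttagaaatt
Before MRD1 (chr1:19964713-19964962, minus strand): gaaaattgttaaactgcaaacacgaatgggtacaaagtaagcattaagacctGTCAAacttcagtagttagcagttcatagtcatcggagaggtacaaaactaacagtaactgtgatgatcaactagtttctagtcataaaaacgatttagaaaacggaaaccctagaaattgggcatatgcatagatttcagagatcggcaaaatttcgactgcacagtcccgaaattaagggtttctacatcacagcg
Before AT3G54160 (chr3:20052932-20053019, plus strand): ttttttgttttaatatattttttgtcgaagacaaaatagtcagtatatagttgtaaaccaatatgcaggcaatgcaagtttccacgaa
Before AT2G07042 (chr2:2922250-2922499, minus strand): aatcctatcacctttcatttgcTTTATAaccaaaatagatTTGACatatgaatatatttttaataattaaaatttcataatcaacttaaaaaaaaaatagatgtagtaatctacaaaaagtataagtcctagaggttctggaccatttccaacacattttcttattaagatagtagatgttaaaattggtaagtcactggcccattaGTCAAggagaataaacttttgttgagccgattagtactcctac

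The window before MRD1 held 1 W-box core, which occurs in 43.9% of the 250-base windows before all 37897 annotated genes. The window before AT2G07042 held 1 match to the TATA box, found on either strand in 44.6% of those windows, and 2 W-box cores. That TATA match reads on the opposite strand to the gene and lies near the end of the window far from it. The 88 bases before AT3G54160 held none of the 3 motifs. Windows of 88 bases hold a TATA box in 21.5% of genes, a W-box core in 17.8% and a G-box in 2.6%. These are matches of letters and not evidence of binding.

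Beyond the MRD1 and HEI10 overlap, the members had little sequence in common. No word of 21 bases was shared, on either strand, by any other pair of members or by a member and AT1G67105, and the longest shared runs were of 9 to 15 bases. Of 50-base windows taken every 10 bases, none from MRD1, HEI10, AT3G54160 or AT2G07042 occurred elsewhere in the genome. For AT1G31570, 80 of 634 windows (12.6%) did, spread between bases 81 and 6380 of the model. Its counts are therefore less certain, since reads with equally good alignments were removed.

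MRD1 had the widest displacement of the 5. It had 1, 56 and 26 pairs in WT replicates 1, 2 and 3, 951, 1182 and 1705 pairs in the RNAi-labelled libraries, and 43, 2 and 105 pairs in 35S-ASCO. Every RNAi-labelled library lay above every other library, while WT and 35S-ASCO overlapped. Its level was 0.361 ± 0.289 CPM in WT, 27.8 ± 1.82 CPM in the RNAi-labelled libraries and 0.510 ± 0.558 CPM in 35S-ASCO (SD, n = 3 each). The mean of the RNAi-labelled libraries was 77.1 times that of WT. The log2 difference in level was 5.96 (SE 0.531) for RNAi-ASCO against WT, rank 3 among the increases of the 22719 genes fitted, and 0.38 (SE 0.655) for 35S-ASCO against WT. The last value moved between -0.74 without 35S-ASCO replicate 3 and 0.90 without WT replicate 2, so it has no settled sign.

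MRD1 also varied more within WT and 35S-ASCO than the other members did. The highest library was 16.2 times the lowest in WT and 20.2 times in 35S-ASCO, against 1.14 times in the RNAi-labelled libraries. The lowest values rested on 1 and 2 pairs, at or under the floor of 3 pairs. The other 4 members differed by at most 1.57 times within WT or 35S-ASCO.

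HEI10, the crossover protein gene, had 67, 178 and 114 pairs in WT, 440, 529 and 616 in the RNAi-labelled libraries and 261, 49 and 200 in 35S-ASCO. Its level was 2.11 ± 0.308, 11.7 ± 1.25 and 1.87 ± 0.429 CPM in those groups. The RNAi-labelled libraries, from 10.6 to 13.1 CPM, did not overlap the others, while 35S-ASCO (1.37 to 2.16 CPM) overlapped WT (1.89 to 2.46 CPM). The log2 difference in level was 2.50 (SE 0.170) for RNAi-ASCO against WT and -0.11 (SE 0.175) for 35S-ASCO against WT. HEI10 had rank 41 among the increases in RNAi-ASCO against WT.

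The balance of pairs between the overlapping genes differed by group. There were 2.16, 2.23 and 2.77 MRD1 pairs for each HEI10 pair in the RNAi-labelled libraries. The ratio was 0.0149, 0.315 and 0.228 in WT and 0.165, 0.0408 and 0.525 in 35S-ASCO. MRD1 pairs thus outnumbered HEI10 pairs in all 3 RNAi-labelled libraries and in none of the other 6. The files give counts per model without positions, so how much of either gene's count came from the 683 shared bases was not tested.

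AT3G54160, the RNI-like protein gene, had 22, 106 and 44 pairs in WT, 397, 472 and 683 in the RNAi-labelled libraries and 102, 27 and 89 in 35S-ASCO. Its level was 0.899 ± 0.196, 11.3 ± 0.852 and 0.841 ± 0.106 CPM. All RNAi-labelled libraries stood above 10 CPM and all others at or under 1.12 CPM, with WT and 35S-ASCO overlapping. The log2 difference in level was 3.60 (SE 0.163) for RNAi-ASCO against WT, a ratio of means of 12.6, and -0.12 (SE 0.176) for 35S-ASCO against WT.

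AT1G31570, the pseudogene, had 6, 32 and 16 pairs in WT, 162, 133 and 214 in the RNAi-labelled libraries and 52, 14 and 57 in 35S-ASCO. Its level was 0.279 ± 0.0594, 3.80 ± 0.961 and 0.473 ± 0.123 CPM. Its 35S-ASCO libraries ran from 0.392 to 0.615 CPM and its WT libraries from 0.220 to 0.339 CPM, so those groups did not overlap either. The share of all genes for which 35S-ASCO and WT do not overlap was not counted, so this is not read as a trait of the locus. The log2 difference in level was 3.68 (SE 0.280) for RNAi-ASCO against WT and 0.71 (SE 0.301) for 35S-ASCO against WT.

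AT2G07042, the noncoding RNA gene, was displaced the other way. It had 69, 258 and 118 pairs in WT, 4, 14 and 17 in the RNAi-labelled libraries and 220, 79 and 198 in 35S-ASCO. Its level was 2.44 ± 0.352, 0.239 ± 0.104 and 2.03 ± 0.253 CPM, so the WT mean was 10.2 times that of the RNAi-labelled libraries. All 3 of those libraries lay below every other library and above the floor of 3 pairs, while WT and 35S-ASCO overlapped. The log2 difference in level was -3.27 (SE 0.273) for RNAi-ASCO against WT, rank 7 among the decreases, and -0.28 (SE 0.211) for 35S-ASCO against WT.

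**Figure D2:**
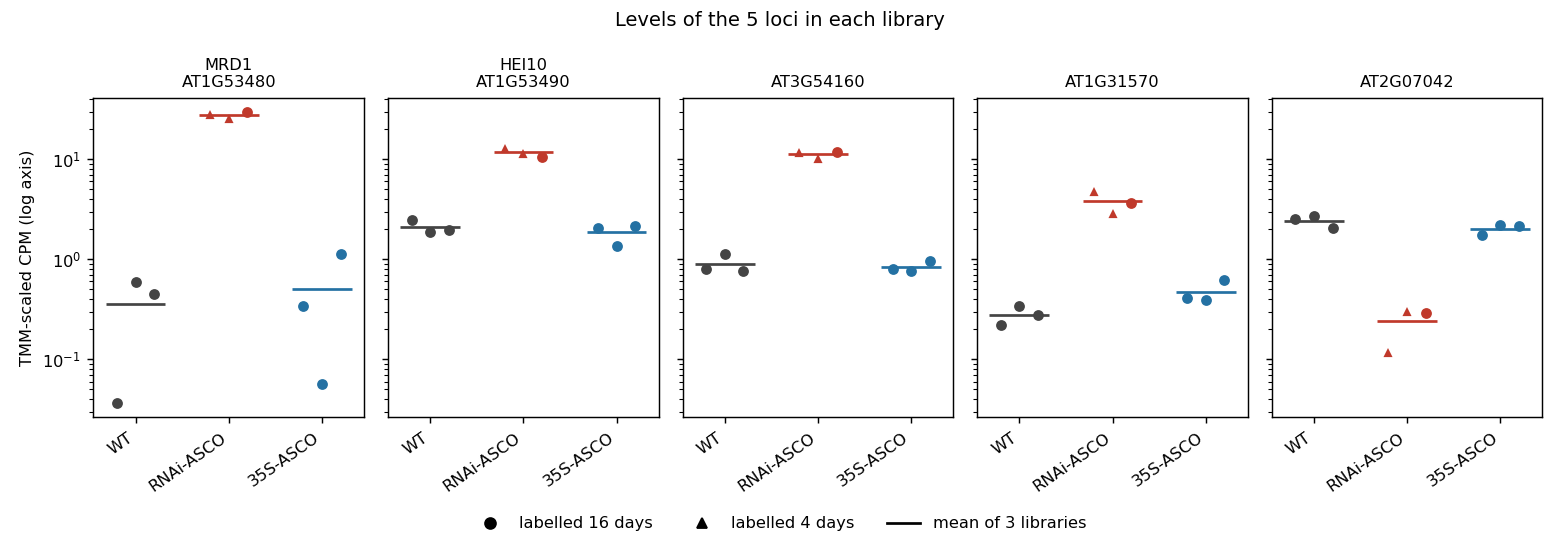
Level of each member in each library (TMM-scaled CPM, log axis), by group, with triangles for libraries labelled 4 days, circles for 16 days and a line at the mean of 3 libraries. In the RNAi-labelled libraries 4 members lie above and AT2G07042 below all other libraries, a difference by which they were chosen. Of all 22719 genes fitted, 8.39% lie above and 7.16% below in the same way. The circle in that group (16 days) is within 1.38 times the mean of the triangles.

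Within that group the 16-day library lay between the 4-day libraries for AT3G54160, AT1G31570 and AT2G07042, above both for MRD1 and below both for HEI10. The 16-day RNAi-labelled library was 1.09 times the mean of the 4-day libraries for MRD1, 0.862 times for HEI10, 1.06 times for AT3G54160, 0.955 times for AT1G31570 and 1.38 times for AT2G07042. Set against WT of the same labelled age, this library alone was 81.4 times the WT mean for MRD1, 5.03 times for HEI10, 13.1 times for AT3G54160 and 13.2 times for AT1G31570. For AT2G07042 the WT mean was 8.33 times the level of this library. The comparison at 16 days rests on 1 library of that line and has no replicate check.

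The counts of single reads stood beside those of pairs in each table. Summed over all genes, a library held 2.06 to 2.16 reads for each counted pair. MRD1 had 3, 122 and 52 reads in WT, 2014, 2536 and 3693 in the RNAi-labelled libraries and 88, 5 and 224 in 35S-ASCO. AT2G07042 had 153, 559 and 248, then 8, 32 and 38, then 486, 172 and 429 reads in the same order. In the RNAi-labelled libraries the reads outside counted pairs were between 2.55% and 7.66% of reads for MRD1, HEI10 and AT3G54160, and between 1.52% and 4.04% for AT1G31570. For AT2G07042, with few reads in that group, they were 0, 12.5% and 10.5%.

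Per kilobase of model, the order of the levels changed between groups. In WT it ran from AT2G07042 (2.58 CPM per kilobase) through HEI10 (0.937), AT3G54160 (0.689) and MRD1 (0.427) to AT1G31570 (0.0437), and each pair of neighbours after the first overlapped between libraries. In 35S-ASCO the order was the same, with 2.15, 0.828, 0.645, 0.604 and 0.0741 CPM per kilobase, and again neighbours overlapped except AT2G07042 and HEI10. In the RNAi-labelled libraries it ran from MRD1 (33.0) through AT3G54160 (8.65), HEI10 (5.22) and AT1G31570 (0.596) to AT2G07042 (0.253), with no overlap between neighbours. In tissue as mixed as a whole seedling, a change in the number of cells that make a transcript and a change in transcript per cell cannot be told apart.

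Displacement in that group was frequent among all genes. With edgeR's quasi-likelihood test at a Benjamini-Hochberg adjusted p under 0.05, 11.8% of 22719 genes differed between the RNAi-labelled libraries and WT (6.96% higher, 4.82% lower). Between 35S-ASCO and WT it was 1.67% (1.36% higher, 0.313% lower), and between 35S-ASCO and the RNAi-labelled libraries 6.75% (3.2% higher, 3.55% lower in 35S-ASCO). For 8.39% of genes the RNAi-labelled libraries lay above all 6 others, and for 7.16% below. Both line contrasts use the same WT libraries. Genes with an absolute log2 difference of at least 3 in RNAi-ASCO against WT and under 1 in 35S-ASCO against WT numbered 11 higher, of which 3 are members, and 3 lower, of which 1 is. At a minimum of 2 there were 51 higher and 17 lower, HEI10 included among the former.

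Besides the members, the genes of that kind included pseudogenes and coding genes. They were listed after their values were seen. The pseudogene AT3G29634 stood at 0.0984 ± 0.0626 CPM in WT, 2.11 ± 0.776 CPM in the RNAi-labelled libraries and 0.0748 CPM in 35S-ASCO. The pseudogene AT2G05280 stood at 0.738 ± 0.225, 7.18 ± 0.531 and 0.718 CPM. NRT1.6, a nitrate transporter gene, stood at 0.137 ± 0.0375, 1.52 ± 0.266 and 0.155 CPM. Among genes that RefSeq calls pseudogenes, 46 of 279 tested were called higher and 14 lower in RNAi-ASCO against WT (21.5% called, beside 11.8% of all genes). In the separate RefSeq class of transcribed pseudogenes, 8 of 288 tested were called higher and 7 lower (5.21%). Of 136 genes in the noncoding RNA class of AT2G07042, 6 were called higher and 21 lower (19.85%). Of 190 long noncoding RNA genes, 17 were called higher and 15 lower (16.84%), and of 44 microRNA genes 3 and 1 (9.09%). A share above that of all genes was thus not particular to pseudogenes. This grouping was also made after the values were seen. The classes include the members AT1G31570 and AT2G07042, which were chosen by this contrast. Genes with few pairs could also enter a class through the group in which they are high, so these shares are a description only.

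**Figure D3:**
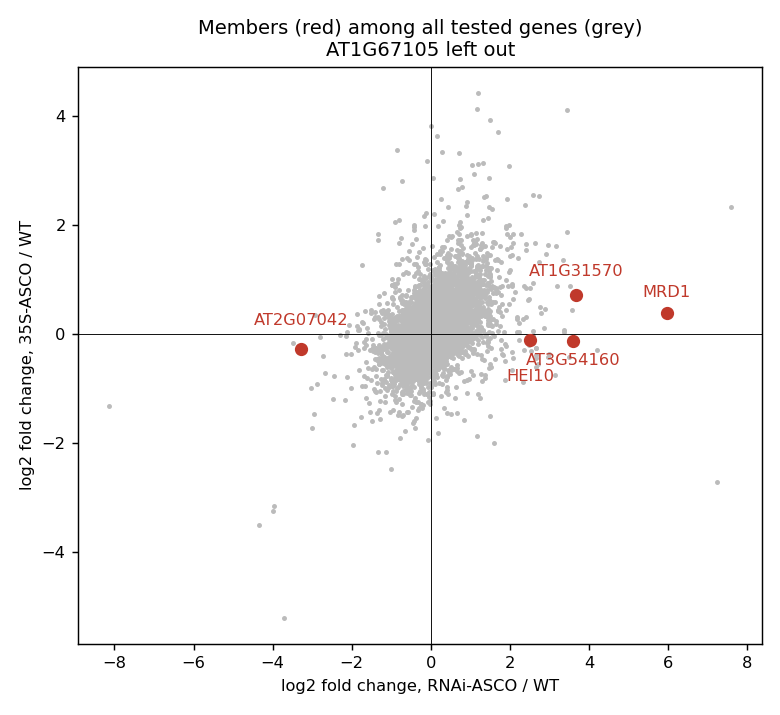
Log2 difference in level of every fitted gene in RNAi-ASCO against WT (horizontal) and 35S-ASCO against WT (vertical), with the 5 members in red; AT1G67105 is left out, and both axes share the WT libraries. The members lie at 5.96, 3.68, 3.60, 2.50 and -3.27 on the horizontal axis and between -0.28 and 0.71 on the vertical one.

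Genes around the members were tested to see how far the displacement reached along the chromosome. Of 80 annotated genes, 10 on each side of each of the 4 loci, 65 had a row in the tables and 44 passed the filter. In RNAi-ASCO against WT 6 of the 44 were called (13.6%, beside 11.8% of all genes), 3 higher and 3 lower, with log2 differences over the 44 between -0.61 and 0.83 and a median of -0.04 (-0.01 over all genes). In 35S-ASCO against WT 1 of 44 was called (2.27%, beside 1.67% of all genes). None of the 16 tested genes around AT3G54160 was called in any of the 3 contrasts by edgeR, and 3 of them had an unadjusted p under 0.05 in each. That holds only within the 10 genes on each side. AT3G54070, outside them and close by locus number, stood at 1.74 ± 0.214 CPM in WT and 0.214 ± 0.193 CPM in the RNAi-labelled libraries (log2 -2.87). In 35S-ASCO its mean was 0.898 CPM. It was picked out by its values, and its distance was not measured.

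Beside MRD1, MSL4, a mechanosensitive channel-like gene 1219 bases away, stood at 10.2 ± 0.345 CPM in WT and 10.4 ± 0.363 CPM in the RNAi-labelled libraries (edgeR adjusted p = 0.875). Beside HEI10 and sharing 9 bases with it, MUM4, a rhamnose synthase gene needed for seed mucilage, stood at 70.8 ± 1.51 and 72.1 ± 6.29 CPM (edgeR adjusted p = 0.839). Farther out, AT1G53430, a receptor-like kinase gene, fell by 0.44 on the log2 scale from 91.0 ± 1.53 to 67.1 ± 5.66 CPM (edgeR adjusted p = 0.00262). AT1G53450 rose by 0.39 (edgeR adjusted p = 0.0215) and AT1G53530 fell by 0.34 (edgeR adjusted p = 0.0464). AT1G53530 lost its call when WT replicate 1 or 3, any RNAi-labelled library or 35S-ASCO replicate 2 or 3 was left out (edgeR adjusted p from 0.0610 to 0.162), and AT1G53450 when replicate 1 or 2 of WT or of the RNAi-labelled libraries was (0.0538 to 0.0929).

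AT3G54150, 88 bases from AT3G54160 and read from the opposite strand, stood at 4.00 ± 1.11 CPM in WT, 4.41 ± 0.319 CPM in the RNAi-labelled libraries and 7.37 ± 2.37 CPM in 35S-ASCO, with an edgeR adjusted p of 0.766 for RNAi-ASCO against WT. On the other side FIP37, a component of the mRNA adenosine methylation complex, stood at 24.1 ± 1.01 and 23.0 ± 1.02 CPM in WT and the RNAi-labelled libraries (edgeR adjusted p = 0.503).

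Around AT1G31570, ECS1 (AT1G31580), 1832 bases away, fell by 0.56 on the log2 scale, from 948 ± 162 CPM in WT to 644 ± 58.8 CPM in the RNAi-labelled libraries (edgeR adjusted p = 0.0152). The call was lost without RNAi-labelled replicate 2 (edgeR adjusted p = 0.0716). AT1G31550, the nearest gene with counts on the other side, rose by 0.55 in 35S-ASCO against WT, from 17.4 ± 0.557 to 25.4 ± 0.994 CPM (edgeR adjusted p = 0.00247). The RNAi-labelled libraries had 17.2 ± 0.194 CPM.

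Around AT2G07042 few genes were measurable: 4 of 20 passed the filter, and the nearest annotated gene, PRK2A, had no pair in any library. AT2G07030, the nearest with counts on that side, had 9 pairs over all 9 libraries. On the other side CAS1, the cycloartenol synthase gene of sterol synthesis, stood at 115.5 ± 2.37 CPM in WT and 117.7 ± 3.72 CPM in the RNAi-labelled libraries (edgeR adjusted p = 0.754). HEN2, which encodes an RNA helicase of the nuclear exosome, rose by 0.21, from 46.1 ± 0.678 to 53.4 ± 1.19 CPM (edgeR adjusted p = 0.0114). When only libraries labelled 16 days were fitted, none of the 6 flanking calls for RNAi-ASCO against WT was made (edgeR adjusted p at least 0.134, with 1 RNAi-labelled library in that fit).

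**Figure D4:**
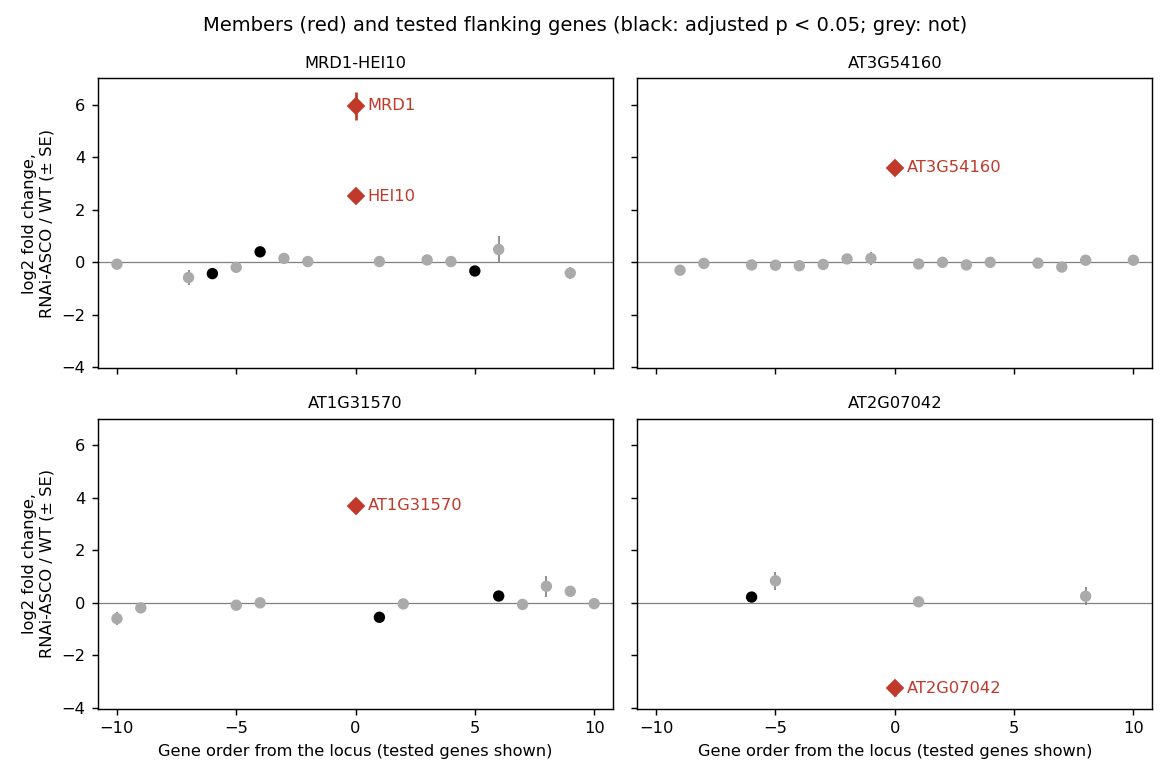
Log2 difference in level, RNAi-ASCO over WT (± SE), of the members (red) and of the tested genes among the 10 on each side of each locus, placed by gene order. Black points are the 6 flanking genes with an adjusted p under 0.05, all between -0.56 and 0.39, against -3.27 to 5.96 for the members.

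HEI10 acts with other proteins of meiotic crossover formation. Of 13 genes for such proteins, all tested, 2 rose in RNAi-ASCO against WT and none fell (15.4% called, near the 11.8% of all genes), with a median log2 difference of -0.00 beside -0.01 over all genes. ASY1, a chromosome axis protein gene, rose from 2.98 ± 0.254 to 4.31 ± 0.638 CPM (log2 0.52, edgeR adjusted p = 0.0379), and DMC1, the meiotic recombinase gene, rose from 10.2 ± 1.04 to 12.8 ± 0.580 CPM (log2 0.34, edgeR adjusted p = 0.0430). ASY1 lost its call when replicate 1 or 2 of WT or of the RNAi-labelled libraries, or 35S-ASCO replicate 2, was left out (edgeR adjusted p from 0.0586 to 0.125). DMC1 lost it when WT replicate 2 or 3, any RNAi-labelled library or 35S-ASCO replicate 2 or 3 was left out (0.0531 to 0.131). Neither was called at 16 days alone (0.585 and 0.471). In 35S-ASCO against WT none of the 13 was called by edgeR, beside 1.67% of all genes, and 2 had an unadjusted p under 0.05. With 13 genes a share that small cannot be told from 0.

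Of 19 genes of methionine synthesis and turnover, the pathway after which MRD1 is named, 2 rose, 1 fell and 16 did not pass the test in RNAi-ASCO against WT (15.8% called, near the 11.8% of all genes), with a median log2 difference of 0.07. MTO1, the cystathionine gamma-synthase gene, rose from 316.9 ± 14.1 to 402.1 ± 18.7 CPM (log2 0.34, edgeR adjusted p = 0.00418). MS2, a methionine synthase gene, rose from 180.3 ± 11.7 to 247.3 ± 15.9 CPM (log2 0.45, edgeR adjusted p = 0.00332). CBL, the cystathionine beta-lyase gene between those steps, fell by 0.20 on the log2 scale from 120.3 ± 5.90 to 104.7 ± 1.92 CPM (edgeR adjusted p = 0.0277), a call lost when WT replicate 2 or 3 or any RNAi-labelled library was left out (0.0524 to 0.0933). MTO1 and MS2 kept their calls whichever library was left out (edgeR adjusted p at most 0.0271 and 0.0185) and lost them at 16 days alone (0.243 and 0.170).

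Of 18 genes of DNA methylation and transcriptional silencing, none passed edgeR's test in RNAi-ASCO against WT, beside 11.8% of all genes, with a median log2 difference of -0.11. At an unadjusted p under 0.05 there were 5, and DESeq2 called 1. Without WT replicate 2 edgeR called 4, and without WT replicate 3 it called 1. The maintenance methyltransferase gene MET1 stood at 70.3 CPM in WT and 71.6 CPM in the RNAi-labelled libraries, and the demethylase gene DML3 at 1.88 and 3.27 CPM (edgeR adjusted p = 0.0605). These were named after their values were seen.

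Genes that RefSeq notes give as the best protein match of a member were looked at after the members' values were known. AT5G03090, the match of MRD1, shares a run of 23 bases with it and had 3, 1 and 4 pairs in WT, 9, 16 and 19 in the RNAi-labelled libraries and 2, 0 and 6 in 35S-ASCO. Its log2 difference in RNAi-ASCO against WT was 2.70 (SE 0.682), on few pairs. Like the members, it could pass the filter on low counts through the group in which it is high, so no test is given. AT3G62430, the match of AT3G54160, shares a longer run of 30 bases with it. It stood at 0.578 ± 0.191 CPM in WT and 0.643 ± 0.142 CPM in the RNAi-labelled libraries (log2 0.18, edgeR adjusted p = 0.754).

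The genes most like each member over the 9 libraries were found by Pearson r of log2 CPM, given as a description of 9 libraries that share their groups. MRD1 was most like the pseudogene AT4G16910 (r = 0.981), at 1.67 CPM in WT, 4.25 CPM in the RNAi-labelled libraries and 1.75 CPM in 35S-ASCO, and then AT1G55030 (r = 0.966). HEI10 was most like the long noncoding RNA gene AT3G05905 (r = 0.992), at 1.40, 4.06 and 1.38 CPM, and then AT2G42920 (r = 0.9895). AT3G54160 was most like CPL1, a phosphatase gene for the tail of RNA polymerase II (r = 0.998), at 39.6 ± 1.80, 97.2 ± 0.904 and 38.0 ± 1.27 CPM. Next for it came the pseudogene AT3G25815 (r = 0.998), with 0, 2 and 0 pairs in WT, 60, 85 and 128 in the RNAi-labelled libraries and none in 35S-ASCO. AT1G31570 was most like AT4G18060 (r = 0.985) and CPL2, a relative of CPL1 (r = 0.984). AT2G07042 was most like AT5G50560 (r = 0.990), at 4.36, 1.78 and 4.34 CPM, and the sulfhydryl oxidase gene QSOX1 (r = 0.985).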

How the data were processed

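Polyadenylated RNA was selected and made into stranded paired-end libraries, per the labels' protocols. The authors deposited counts of reads and of read pairs for each gene model. Per the file headers, both mates of a counted pair had to align to 1 model in reversed orientation, a lone mate was taken as unmapped, insert size was unlimited, and reads with equal best and second-best alignment scores were removed. The submitters' processing notes name TopHat2, Bowtie2 and TAIR10. Strand use in counting is not given in the sources used here.

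The pair counts of all 9 libraries were fitted by the quasi-likelihood F test of edgeR 4.0.16 under R 4.3.3 (genotype as the only factor, TMM scaling, filterByExpr, which kept 22719 genes), with Benjamini-Hochberg adjustment over those genes and a threshold of 0.05. Levels are TMM-scaled CPM, as mean ± SD of 3 libraries. The SE of a log2 difference is its absolute value divided by the square root of the F statistic of that fit. For the members it is a description only, and no p is given. Loci, sequences and neighbours came from RefSeq TAIR10.1, which holds 97.7% of the identifiers; 36.5% of models had the same exon length there, so models were compared by length for each member. Replicates differed by more than sampling noise over all genes (mean chi-square per gene between 2 libraries at least 7.07, a measure that grows with the pair count). Each library was taken as 1 sample, though this does not show that replicates were grown separately.

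The members and gene lists were chosen with earlier results of these data known. The text names the members and AT1G67105, the nearest gene with counts on each side, flanking genes and up to 6 genes per list past the threshold, and for each member the 2 genes with the highest r of log2 CPM (prior count 2); others are said to be chosen later. The values of 1 flanking gene past the threshold are not reported here. Alternatives were RLE and upper-quartile scaling, no filter, DESeq2 1.42.0, only the 6 libraries compared, the replicate number as a block, single reads, only libraries labelled 16 days, and leaving out each library.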

Additional observations from a re-analysis of the deposited data

Results flagged for a closer look

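Among genes flanking the members, 5 differed between 35S-ASCO and the RNAi-labelled libraries by edgeR's test of that difference, out of 44 tested (11.4%, beside 6.75% of all genes). Near MRD1 and HEI10, AT1G53440 was higher in 35S-ASCO by 0.34 on the log2 scale (edgeR adjusted p = 0.0337), from 76.2 ± 5.22 to 96.1 ± 9.86 CPM, and AT1G53430 by 0.41 (edgeR adjusted p = 0.00525). Near AT1G31570, AT1G31550 was higher by 0.56 (edgeR adjusted p = 0.000381) and ECS1 by 0.67 (edgeR adjusted p = 0.00992). Near AT2G07042, HEN2 was lower in 35S-ASCO, with a log2 difference of -0.22 (edgeR adjusted p = 0.0130). For AT1G53430, ECS1 and HEN2 the RNAi-labelled libraries also differed from WT, and for AT1G31550 the 35S-ASCO libraries did. AT1G53440 passed the threshold against WT in neither group. No member is among these, since the members were chosen by this difference.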

How the results depend on the processing

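For the 5 members, all 8 alternatives other than leaving out a library kept the direction of RNAi-ASCO against WT, within 5.95 to 6.24 for MRD1, 2.35 to 2.51 for HEI10, 3.57 to 3.68 for AT3G54160, 3.63 to 3.74 for AT1G31570 and -3.29 to -3.05 for AT2G07042. Leaving out each library gave 5.70 to 6.48, 2.42 to 2.60, 3.47 to 3.85, 3.49 to 3.87 and -3.45 to -3.02. For 35S-ASCO against WT it gave -0.74 to 0.90, -0.20 to 0.03, -0.26 to 0.12, 0.46 to 0.90 and -0.40 to -0.17, so the sign changed for MRD1, HEI10 and AT3G54160. With only libraries labelled 16 days, 0 flanking genes, 0 meiotic genes and 0 methionine genes were called in RNAi-ASCO against WT, and 103 of all genes; that fit has 1 library of this line, assumed to vary like the others. In 35S-ASCO against WT, 64 genes were called at 16 days alone, 64 with only the 6 libraries compared and 1315 with DESeq2, beside 379; DESeq2 called 2 flanking genes there and 1 silencing gene in RNAi-ASCO against WT. The meiotic list had 0 calls with only the 6 libraries compared and 1 with single reads. With the replicate number as a block, the meiotic list had 1 call and the silencing list 1. The shared numbers did not pair the libraries: deviations of same-numbered libraries correlated between -0.0232 and 0.0763. Leaving out each library gave 2 to 7 flanking calls in RNAi-ASCO against WT (lowest without RNAi-ASCO replicate 2) and 1 to 3 in 35S-ASCO, 0 to 2 meiotic, 2 to 4 methionine and 0 to 4 silencing calls, 995 to 3025 calls over all genes in RNAi-ASCO against WT (995, 1154 and 1372 without RNAi-ASCO replicate 2, RNAi-ASCO replicate 1 and WT replicate 1) and 25 to 611 in 35S-ASCO (25, 26, 97, 112 and 611 without WT replicate 1, 35S-ASCO replicate 2, RNAi-ASCO replicate 2, 35S-ASCO replicate 1 and 35S-ASCO replicate 3). The cause was not tested. The lowest pair counts of any member were those of MRD1, at 1 pair in WT replicate 1 and 2 pairs in 35S-ASCO replicate 2. Relative to the library total, these were 0.0367 CPM, beside 0.593 and 0.452 CPM in WT replicates 2 and 3, and 0.0560 CPM, beside 0.340 and 1.13 CPM in 35S-ASCO replicates 1 and 3.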
